A study of Mus musculus with 20 samples.

Results

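From embryonic day E12.5 to E16.5 the mouse fetus turns from a body with limb buds and a newly formed liver into a fetus with a layered epidermis, contracting muscle, ossifying bone and secreting glands. The comparison described here sets the 2 arrays labelled E16.5 against the 2 labelled E12.5, which are 4 of the 20 arrays and 2 of the 8 stages of the series. All samples were wild type C57BL/6 mouse embryos kept specific-pathogen free, of mixed sex, taken whole except for the amnion, and each array held total RNA pooled from several embryos. The labels name no treatment and call the arrays of a stage biological replicates. RNA was hybridised to the Affymetrix Mouse Genome 430 2.0 array, and the values are MAS5 signals, a linear brightness per probe set scaled to the same trimmed mean of 500 on every array.

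The fetal period is known for several broad programmes. Patterning genes such as the Hox cluster, which give cells a position along the body and the limb, and the genes of dividing neural progenitors are most active while the body plan is laid down. Differentiated tissues then switch on their products, such as keratins and cornified envelope proteins in skin, sarcomere proteins in muscle, plasma proteins in liver and digestive enzymes in pancreas and gut. Blood formation moves from the yolk sac to the liver, and red cells that carry embryonic globins are replaced by red cells that carry adult globins. Since a whole embryo was measured, fewer cells of a type and less RNA per cell cannot be told apart in any value below.

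Of 18193 genes with a probe set that carries a single symbol, 14044 exceeded the array median on at least 2 of the 20 arrays and were tested, and 4149 were not. A gene was called where limma gave a Benjamini-Hochberg adjusted p below 0.05 and the change was at least 2-fold. By this rule 1417 genes rose (10.1% of those tested) and 361 fell (2.57%). The arrays of the stages did not overlap on these 1778 genes, as on 74.3% of all genes tested. Changes are given as log2 differences, E16.5 minus E12.5, of signal plus a pseudocount of 25.86, which understates the change of genes near 0. The median over all genes tested was -0.01.

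The rises were larger than the falls. Changes of at least 4-fold were reached by 535 of the genes that rose and 23 of those that fell, and changes of at least 16-fold by 93 and 2. Without a minimum fold 2532 genes passed the adjusted p upward and 2444 downward, and 2083 of the latter had changed by less than 2-fold. The part of scaling every array to 1 mean in this balance was not tested. Of the 1417 genes that rose, 839 were at or below the array median on both E12.5 arrays, so that they entered the test through later or earlier stages. A low start leaves more room to rise than to fall. Of tested genes, 21 of 25 on the barrier list started this low, as did 8 of 14 neutrophil and 5 of 5 lymphocyte genes. So did 8 of 11 antigen presentation, 7 of 10 lung, 7 of 12 fat, 6 of 8 bone formation and 3 of 5 bone resorption genes. A mean signal at E14.5 between those of E12.5 and E16.5 was found for 1338 of the genes that rose and 353 of those that fell.

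**Figure D1:**
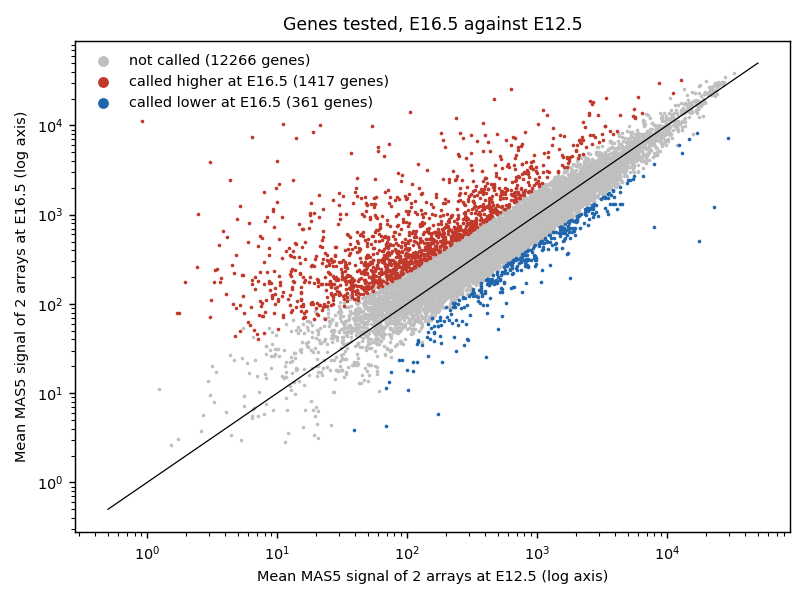
Mean MAS5 signal of the 2 arrays at E12.5 (x axis, log scale) against that at E16.5 (y axis, log scale) for the 14044 genes tested, with the line of equal signal. The 1417 genes called higher at E16.5 spread far from the line at low E12.5 signals, while most of the 361 called lower lie close to it.

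The 2 arrays of a stage correlated at r = 0.9907 at E12.5 and 0.9835 at E16.5 over all genes tested, and arrays of different stages at 0.8734 to 0.8819, as a description across genes. The ratio of 3' to 5' signal of the Gapdh control probe sets, a sign of RNA integrity, was 0.728 and 0.7035 at E12.5 and 0.7415 and 0.7143 at E16.5, so the stages overlapped. Genes above a signal of 10000 were brighter on the second E16.5 array than on the first, with a median ratio of 1.21 over 206 genes, against 0.97 between 1000 and 10000. At E12.5 the corresponding ratios were 1.06 and 1.01. The part of this in the changes of the brightest genes was not tested.

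The promoters of barrier genes are shown first because this list had the highest median change. The 4 were chosen for a TATAAA match near the start. The 100 bases before the annotated RefSeq start (build GRCm38.p6) of 4 of them are printed 5' to 3', with the letters TATAAA in capitals. Lor, read on the minus strand of chr3:92083143-92083242, encodes loricrin, the main protein of the cornified envelope. Krtdap, on the plus strand of chr7:30787805-30787904, encodes a secreted protein of differentiating keratinocytes. Hrnr, on the plus strand of chr3:93319649-93319748, encodes hornerin, a relative of filaggrin. Ivl, on the minus strand of chr3:92573736-92573835, encodes involucrin, an early scaffold of the envelope.
Lor: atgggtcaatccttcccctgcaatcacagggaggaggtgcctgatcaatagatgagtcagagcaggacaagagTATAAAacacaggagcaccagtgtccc
Krtdap: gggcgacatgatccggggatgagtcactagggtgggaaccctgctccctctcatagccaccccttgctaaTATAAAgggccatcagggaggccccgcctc
Hrnr: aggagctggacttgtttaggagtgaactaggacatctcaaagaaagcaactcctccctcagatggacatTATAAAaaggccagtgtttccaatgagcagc
Ivl: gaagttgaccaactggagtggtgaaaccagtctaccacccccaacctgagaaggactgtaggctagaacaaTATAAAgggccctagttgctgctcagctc

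In these 4 promoters the first T of the match lies 27, 30, 31 and 29 bases before the start. Searched on both strands of the 300 bases from 250 before to 50 after the start, TATAAA was found for 11 of the 25 genes of the barrier list that the RefSeq table holds (44%), against 15.7% of all 27025 genes of the table. The match is a description of letters and says nothing of what binds there.

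Of the 10 largest rises, 5 were on the epidermal and barrier lists. Of 25 tested genes of the cornified envelope and barrier list, 21 rose and none fell, with a median change of 3.50. Over all genes tested 10.1% rose and 2.57% fell. On both E12.5 arrays 21 of the 25 were at or below the array median, so most entered the test through other stages. Hrnr had signals of 1.34 and 0.476 at E12.5 and 11003 and 11343 at E16.5, a change of 8.71 ± 0.27 SE with an adjusted p of 1.5e-14. Hrnr thus went from near 0 on both E12.5 arrays to above 10000 on both E16.5 arrays. Dmkn, which encodes dermokine, a secreted epidermal protein, read 12.9 and 9.3 at E12.5 and 10276 and 10729 at E16.5 (8.16 ± 0.33 SE, adjusted p = 6.8e-13). Krtdap read 23.7 and 19.1 at E12.5 and 9406 and 10642 at E16.5 (7.73 ± 0.33 SE, adjusted p = 2.0e-12). Both had already begun to climb at E14.5, with 1024 and 906 for Dmkn and 723 and 916 for Krtdap.

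Lor took another course, with 258 and 216 at E12.5, 204 and 287 at E14.5 and 9894 and 14577 at E16.5 (5.52 ± 0.24 SE, adjusted p = 2.0e-12). Its signal at E14.5 was thus still at the E12.5 level. Asprv1, which encodes a protease that processes filaggrin, rose from 60.9 and 59.5 to 5714 and 4584 (5.90 ± 0.40 SE, adjusted p = 9.7e-10). Ivl rose from 21.9 and 8.94 to 635 and 750 (4.14, adjusted p = 2.9e-08). Flg, the filaggrin gene, reached only 116 and 88.7 at E16.5, from 7.08 and 8.28 at E12.5 (1.93, adjusted p = 2.4e-04), and stood at 9434 and 9513 at E18.5. Lce1b, a late envelope gene, read 43.3 and 76.3 at E12.5 and 74.4 and 87.5 at E16.5 and did not pass the test (adjusted p = 0.612), while the E18.5 arrays gave 4738 and 3907. Tgm3, Casp14 and Aloxe3 were the other members that missed the call, with changes of 0.83, 0.17 and 1.09.

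The keratins, desmosome proteins and regulators that precede the barrier rose as well, in 16 of 18 tested members (median 2.90), against 10.1% of all genes. On both E12.5 arrays 9 of the 18 were at or below the array median. Dsc1, a desmosomal cadherin of the upper epidermis, read 0.689 and 5.43 at E12.5 and 3785 and 4023 at E16.5 (7.09 ± 0.30 SE, adjusted p = 1.7e-12), and its partner Dsg1a read 10.3 and 8.42 at E12.5 and 1190.4 and 1126 at E16.5 (5.07, adjusted p = 1.5e-09). Krt1 and Krt10 form the keratin pair of the spinous layer. Krt1 rose from 96.9 and 113 to 12898 and 15489 (6.76 ± 0.35 SE, adjusted p = 4.6e-11). Krt10 rose from 610.4 and 644 to 20888 and 29719 (5.26 ± 0.17 SE, adjusted p = 1.5e-14), with the brighter value on the second array. The basal keratins rose less, with changes of 1.91 for Krt5 and 2.42 for Krt14. Trp63, the regulator of the epidermal lineage, read 354 and 344 at E12.5 and 643 and 639 at E16.5 and stayed under the 2-fold minimum (0.83, adjusted p = 0.00666), as did Grhl3 (0.41, adjusted p = 0.283).

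Krtap13 and Krt77 were high at E16.5 and low at the stages on either side. Krtap13, a keratin-associated protein gene, read 5.95 and 6.99 at E12.5, 34 and 26.7 at E14.5, 7274 and 7404 at E16.5 and 298 and 359.8 at E18.5. Its rise to E16.5 was 7.83 ± 0.43 SE with an adjusted p of 8.3e-11. Krt77, a keratin of sweat ducts and fetal epidermis, rose from 73.6 and 70.9 to 6014 and 6224 (5.97, adjusted p = 4.7e-09) and stood at 201 and 222 at E18.5. In all, 9 of the 1417 genes that rose had a mean at least 4-fold lower at E18.5 than at E16.5, and 3 of these, Serpina6, Il17b and Nxpe2, had a higher mean at E14.5 than at E16.5. The uncharacterised loci 2310034C09Rik and 2310057N15Rik, named here after their values were seen, were among these 9, with 6864 and 7737 and 2416 and 2440.2 at E16.5. Calm4, a calmodulin-like gene of the epidermis, kept climbing, from 21.7 and 16 at E12.5 to 8526 and 8299.5 at E16.5 and 15988 and 15565 at E18.5 (7.56 ± 0.47 SE, adjusted p = 3.7e-10).

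**Figure D2:**
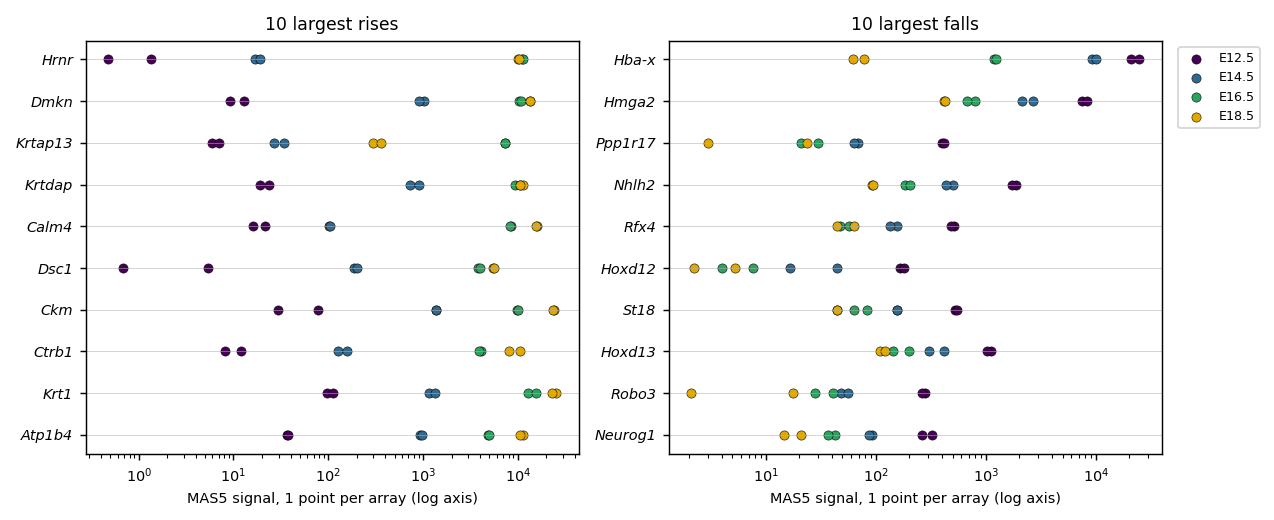
MAS5 signal on each array (x axis, log scale, 1 point per array, coloured by stage) of the 10 largest rises and 10 largest falls, leaving out uncharacterised loci and x_at probe sets. Most rises, such as Calm4 and Ckm, continued to E18.5, while Krtap13 read 298 and 360 at E18.5.

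Hair follicle genes were split, while over all genes tested 10.1% rose and 2.57% fell. Of 13 tested, 4 rose and 2 fell, with a median of 0.48. The 4 that rose encode keratins: Krt27 (9.42 and 11.5 at E12.5 and 148 and 179 at E16.5, change 2.38), Krt25 (1.98), Krt17 (1.89) and Krt71 (1.68), with adjusted p-values of 5.0e-05, 1.9e-04, 2.5e-04 and 0.00114. The 2 that fell were transcription factor genes also active in other tissues, Lhx2 (1074 and 1355 at E12.5 and 413 and 405 at E16.5, change -1.50, adjusted p = 2.2e-07) and Lef1 (-1.38, adjusted p = 1.3e-05). Shh, the signal of the follicle bud, read 737 and 794 at E12.5 and 687 and 692 at E16.5 and was not called (adjusted p = 0.393). None of 5 tested pigment cell genes was called, among them Dct (222 and 205 at E12.5 and 454 and 439.7 at E16.5, change 0.98) and Kit (0.04). Under quantile normalization, or without the first E16.5 array, 1 of them rose.

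Skeletal muscle made the next large block. Of 31 tested contraction genes, 25 rose and none fell, against 10.1% and 2.57% of all genes. Their median was 2.20 against -0.01 over all genes. On both E12.5 arrays 12 of the 31 were at or below the array median. Ckm, the muscle creatine kinase, read 78.7 and 29.7 at E12.5 and 9748 and 9998 at E16.5 (7.02 ± 0.46 SE, adjusted p = 6.6e-10). Its E18.5 arrays gave 24195 and 23360.5. Tnni2 and Tnnt3, the fast troponins, rose from 274 and 240.3 to 8393 and 8202 (4.88, adjusted p = 1.9e-08) and from 199.5 and 194 to 5811 and 5794 (4.71, adjusted p = 1.3e-10). Atp1b4, a muscle membrane protein of the Na,K-ATPase beta family and no member of the list, read 36.9 and 37.5 at E12.5 and 4894 and 5006 at E16.5 (6.30 ± 0.28 SE, adjusted p = 2.2e-12).

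The myosin heavy chains differed in course. The embryonic chain Myh3 read 2293 and 2192 at E12.5 and 10392 and 11384 at E16.5 (2.27), and the perinatal chain Myh8 256 and 281 at E12.5 and 7774 and 6569.8 at E16.5 (4.61 ± 0.27 SE, adjusted p = 1.9e-10). Myh8 read 2777 and 2499.9 at E14.5, between its values at the 2 stages compared. The adult fast chain Myh1 read 79.8 and 50.9 at E12.5 and 104 and 126 at E16.5 and was not called (adjusted p = 0.203), with 3282 and 2868 at E18.5. Another adult fast chain, Myh2, was dim but called (5.74 and 7.5 at E12.5 and 57.2 and 44.5 at E16.5, change 1.24, adjusted p = 0.037), with 621 and 500.2 at E18.5. The slow chain Myh7 and myoglobin (Mb) were not called, with changes of 0.45 and 0.76 and adjusted p-values of 0.022 and 0.116. Of 9 tested myogenic factors only Myf6, the factor of mature fibres, was called (56 and 38.5 at E12.5 and 547 and 494 at E16.5, change 2.91 ± 0.35 SE, adjusted p = 1.8e-06). Pax3, Pax7, Myf5, Myod1 and Myog had changes of -0.79, -0.49, 0.05, -0.26 and 0.49. Mef2c was just under 2-fold (0.94, adjusted p = 1.3e-05). Without the minimum fold 3 of the factors passed upward and 1 downward, and under quantile normalization 2 rose. 

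A promoter of this block is shown for its E-box, the 6 letters CAGCTG that myogenic factors are known to bind. It is that of Mylpf, the fast myosin light chain gene (2592 and 2820.2 at E12.5 and 16339.6 and 20373 at E16.5, change 2.74, adjusted p = 2.2e-09), on the plus strand of chr7:127211408-127211607 of GRCm38.p6, with the E-box in capitals.
Mylpf: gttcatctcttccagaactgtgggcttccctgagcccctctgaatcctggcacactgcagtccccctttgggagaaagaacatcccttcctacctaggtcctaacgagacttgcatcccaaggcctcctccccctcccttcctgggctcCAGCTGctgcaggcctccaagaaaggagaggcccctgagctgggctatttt
CAGCTG was found in the 300-base promoter of 13 of 25 muscle genes that the RefSeq table holds (52%) and of 18.3% of all 27025 genes.

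Heart genes, by contrast, gave 4 calls upward of 16 tested and none downward (median 0.27), against 10.1% and 2.57% of all genes. The 4 were Tnni1 (2639.5 and 2505 at E12.5 and 7833 and 7942 at E16.5, change 1.61), Myl4 (1.42), Tnnt2 (1.26) and Actc1 (1.03), which fetal skeletal muscle is also known to express. Actc1 lost its call without the second E16.5 array, with a change of 0.79. The chamber genes Myl7 and Nppa had lower signals at E16.5, -0.71 and -0.96, but stayed under 2-fold, though 1 heart gene fell under quantile normalization and without the first array of either stage, and Myl2 read 2820.4 and 2935 at E12.5 and 3446 and 3411 at E16.5. On the smooth muscle list 6 of 11 tested genes rose, and values of a whole embryo do not place these rises in that tissue. The largest were those of Actg2, enteric actin (503 and 433 at E12.5 and 1844 and 1888 at E16.5, change 1.94, adjusted p = 2.4e-05), Myh11 (1.85), Synpo2 (1.68), Des (1.56) and Cnn1 (1.48). Acta2, Tagln, Smtn, Itga8 and Myocd were not called, with changes of 0.613, 0.848, 0.695, 0.114 and -0.003. With all probe sets of a gene averaged, 3 smooth muscle genes rose, and Myh11, Synpo2 and Des were not among them. Endothelial genes gave no call among 15 tested (median 0.18): Cdh5, VE-cadherin, read 329 and 281 at E12.5 and 343 and 346 at E16.5, Kdr 471 and 517 at E12.5 and 430.1 and 406 at E16.5, and Pecam1 had the highest change at 0.99. Without the minimum fold 5 passed upward, and 1 was called under quantile normalization, 75th percentile scaling, a pseudocount 4 times smaller, or without the first E12.5 or the first E16.5 array.

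Bone genes rose with the genes of maturing cartilage. Of 8 tested bone formation genes 7 rose, and of 5 tested bone resorption genes 5 rose while 5 more were too dim to be tested. Of 19 cartilage genes 12 rose and 1 fell. These counts stand against 10.1% rises and 2.57% falls over all genes. Ibsp, bone sialoprotein, read 47.3 and 66 at E12.5 and 2662 and 2400.5 at E16.5 (4.96 ± 0.34 SE, adjusted p = 1.3e-09). Dmp1, a product of osteocytes, read 17.8 and 24.4 at E12.5 and 979 and 918 at E16.5 (4.38 ± 0.33 SE, adjusted p = 4.0e-09). Ifitm5, an osteoblast membrane protein, rose from 54.9 and 61.1 to 702 and 653 (3.07, adjusted p = 2.0e-05), and Col1a1, the chain of bone and connective tissue collagen, from 4166 and 4517 to 12574 and 13697 (1.59, adjusted p = 5.8e-06). With a pseudocount 4 times larger, 4 bone formation genes rose.

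Mmp13, the collagenase of hypertrophic cartilage and bone front, read 3.6 and 12.2 at E12.5 and 1669 and 1885 at E16.5 (5.75 ± 0.34 SE, adjusted p = 2.1e-10). The osteoclast products rose less: Mmp9 by 2.37, Ctsk, cathepsin K, by 2.15 (395 and 447 at E12.5 and 1983 and 1919 at E16.5), Atp6v0d2 by 2.14 and Acp5 by 1.18. In cartilage Col10a1, the collagen of hypertrophic chondrocytes, rose from 4.5 and 12.3 to 1104 and 779 (4.81 ± 0.37 SE, adjusted p = 6.8e-09). Comp, Ucma, Epyc and Snorc, matrix genes of maturing cartilage, rose by 2.95, 2.67, 2.32 and 2.27. Sox9, the factor that starts cartilage and is also active in neural and gonad precursors, was the member that fell (849 and 839 at E12.5 and 237 and 315 at E16.5, change -1.54, adjusted p = 1.4e-04), a call that was lost with all probe sets averaged. Col2a1, the main cartilage collagen, read 3174 and 3140.2 at E12.5 and 5927 and 5806 at E16.5 and did not pass (adjusted p = 0.0705).

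Connective tissue genes rose in 15 of 22 tested, against 10.1% of all genes, with a median of 1.39. Mfap5, a microfibril protein, read 103 and 71.7 at E12.5 and 1523 and 1452 at E16.5 (3.75 ± 0.34 SE, adjusted p = 5.4e-08). Tnmd, tenomodulin of tendon, rose by 2.59, the fibril collagen Col14a1 by 2.11, elastin (Eln) by 2.07 and decorin (Dcn) by 2.04, with adjusted p-values of 4.0e-05, 3.2e-08, 2.0e-05 and 6.7e-06. Scx, the tendon progenitor factor, read 182 and 159.6 at E12.5 and 115 and 168 at E16.5 and was not called (adjusted p = 0.742).

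Both liver lists rose in large part. Of 20 tested genes on the plasma protein list, which also holds the enzyme gene Mat1a, 19 rose (median 2.61). Metabolic enzymes rose in 9 of 16 (median 1.57), and 10.1% of all genes rose. At E12.5, 13 of the 16 enzymes but 3 of the 20 were below the median on both arrays, and the lists were not tested against each other. Ahsg, fetuin-A, read 334 and 288 at E12.5 and 7191 and 8570.0 at E16.5 (4.55 ± 0.26 SE, adjusted p = 1.9e-10). Apoh, beta-2-glycoprotein, read 415 and 374 at E12.5 and 8123 and 7689 at E16.5 (4.24, adjusted p = 1.5e-08). Kng1, kininogen, and Fga, a fibrinogen chain, rose by 3.86 and 3.48, and Mat1a, the adult liver methionine adenosyltransferase, by 4.10 (8.49 and 6.9 at E12.5 and 609 and 494 at E16.5). Alb and Afp, the albumin pair, were bright from the start. Alb read 12380.1 and 13291 at E12.5 and 25581 and 39236 at E16.5 (1.30, adjusted p = 0.00776), and Afp, the fetal member, read 19476 and 20162 at E12.5 and 22756 and 39566 at E16.5 and was the member of that list that did not pass (0.60, adjusted p = 0.106). On both genes the second E16.5 array was far brighter than the first. The HNF1 motif fixed for this list, which leaves 1 base free, was found in the promoter of 1 of 16 plasma protein genes in the RefSeq table (6.25%), against 0.47% of all genes.

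Among the enzymes, Cyp2d26 and Cyp3a11, cytochromes P450 of drug metabolism, rose from 35.8 and 9.71 to 1118 and 1219 (4.67, adjusted p = 3.2e-08) and from 35.9 and 24.8 to 939 and 849.5 (4.04, adjusted p = 4.3e-08). Cps1, the entry enzyme of the urea cycle, read 64.5 and 78.7 at E12.5 and 1809 and 1968 at E16.5 (4.30 ± 0.35 SE, adjusted p = 1.1e-08), and Hpd and Uox, of tyrosine and urate breakdown, rose by 3.54 and 3.19. The glucose-producing enzymes were not called. G6pc read 17.8 and 15.2 at E12.5 and 10.1 and 2.79 at E16.5 and Pck1 58.1 and 21.4 at E12.5 and 42 and 59.6 at E16.5, with adjusted p-values of 0.562 and 0.719, whereas the E18.5 arrays gave 426 and 601 and 691 and 638. Cyp2e1 was likewise not called (36.6 and 36.3 at E12.5 and 77.7 and 90.5 at E16.5, adjusted p = 0.187) and read 2140.1 and 2523 at E18.5.

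**Figure D3:**
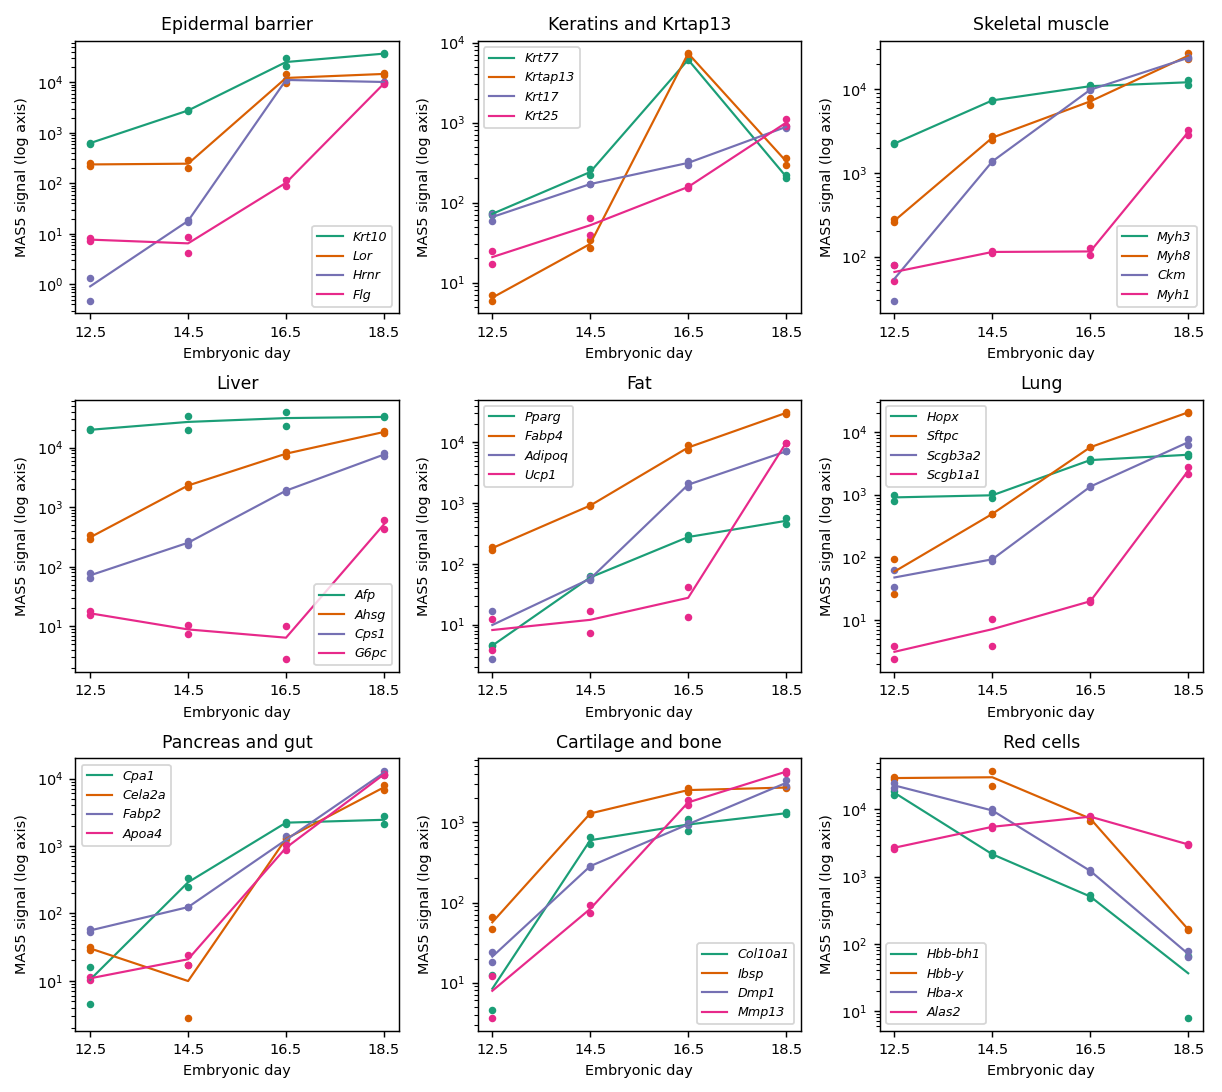
MAS5 signal (y axis, log scale) by embryonic day in 9 panels of 4 genes, with 1 point per array and a line through the stage means. Genes such as Ahsg and Ckm climbed through all 4 stages, whereas Flg, Myh1, G6pc, Ucp1 and Scgb1a1 were low at E16.5 and high at E18.5.

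The 3 tested embryonic globins all fell, against 2.57% of all genes. Hba-x, the embryonic alpha-like chain, read 20711 and 24914 at E12.5 and 1189 and 1242 at E16.5 (-4.20 ± 0.41 SE, adjusted p = 1.2e-07). Hbb-bh1, read by a probe set that can cross-hybridise within the family (x_at), went from 16658 and 18806 to 529 and 480.5 (-5.06, adjusted p = 1.5e-10), and Hbb-y, also x_at, from 28193 and 30559 to 6835 and 7806 (-2.003, adjusted p = 2.6e-07). The drops differed in time, since Hbb-bh1 was at 2069 and 2231 by E14.5 and Hbb-y still at 22578 and 37806. Of the adult globins, Hbb-b2 had a probe set of the same kind that gave 806 and 693 at E12.5 and 3199.5 and 8695 at E16.5 (2.78, adjusted p = 7.3e-05), with the 2 E16.5 arrays far apart. Another probe set of Hbb-b2 changed by -0.76, and with all probe sets averaged the gene was not called (1.01, adjusted p = 0.0531). The probe set of Hba-a2, an adult alpha chain, was dim at both stages, at 58.9 and 27.4 at E12.5 and 48.5 and 37.9 at E16.5, below the array medians, and gives no measure of that chain.

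Of 17 tested erythroid genes 3 rose, against 10.1% of all genes. Without the 2-fold minimum 9 passed upward, all 17 had a higher mean, and the median was 0.81. The 3 were Alas2 and Fech, the first and last enzymes of haem synthesis in red cells, and Tspo2. Alas2 read 2587 and 2802 at E12.5 and 7682 and 7946 at E16.5 (1.53, adjusted p = 9.8e-05), Fech 3796 and 4488 at E12.5 and 8729.5 and 8612 at E16.5 (1.07, adjusted p = 1.9e-05) and Tspo2 314 and 396 at E12.5 and 889 and 1240.0 at E16.5 (1.51, adjusted p = 0.00183). Fech fell under the 2-fold minimum without the first E12.5 array, at 0.95, and with all probe sets averaged, at 0.81. Klf1, the erythroid regulator, read 1522 and 1436 at E12.5 and 2407 and 2084 at E16.5 after a higher 3300.1 and 3462 at E14.5, and Epor, the erythropoietin receptor gene, changed by 0.08. CCACACCC, letters known from sites of KLF1, was found in the promoters of 0 of 15 erythroid genes and 4.09% of all genes of the RefSeq table. Under quantile normalization 8 of the erythroid genes rose.

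All 14 tested neutrophil granule genes rose, with changes from 1.49 to 3.52, against 10.1% of all genes tested. S100a8 and S100a9, the calprotectin pair, read 1170.5 and 1228 at E12.5 and 13315 and 12544 at E16.5 (3.40 ± 0.43 SE, adjusted p = 3.9e-06) and 537 and 626 at E12.5 and 6619.7 and 7216 at E16.5 (3.52 ± 0.33 SE, adjusted p = 8.0e-08). Ngp, Elane and Lcn2, granule products of different maturity, rose by 3.42, 3.26 and 3.22. Elane had E16.5 arrays of 783 and 480.4, and the second of these lay between its 492 and 476 at E14.5. Both stages were clear of E12.5, at 19.1 and 73.1.

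Macrophage genes rose in 11 of 13 tested (median 1.28), a count of 7 without the second E12.5 array or without the second E16.5 array. Among all genes tested the share that rose was 10.1%. Lyz2, lysozyme, read 538 and 637 at E12.5 and 3402 and 3687 at E16.5 (2.55 ± 0.38 SE, adjusted p = 3.1e-05), the scavenger receptor Cd163 3.52 and 2.67 at E12.5 and 121 and 103 at E16.5 (2.25, adjusted p = 1.9e-04), and Marco and C1qc rose by 1.74 and 1.37. Csf1r and Adgre1 rose by 1.28 and 1.03, while C1qb (0.70) and Vsig4 (0.84) were not called. Values of a whole embryo do not assign these rises, that of Lyz2 included, to macrophages alone. Of 5 tested lymphocyte genes 3 rose: Rag1, the receptor gene recombinase (46.9 and 29.5 at E12.5 and 209.6 and 157 at E16.5, change 1.71, adjusted p = 0.00373), Cd3d (1.82) and Igll1 (1.93, x_at). Cd3d lost its call without the second E16.5 array (adjusted p = 0.0539), as did Igll1 (adjusted p = 0.0934), which was also lost without the first E12.5 array (adjusted p = 0.249). Rag1 was lost with a pseudocount 4 times smaller (adjusted p = 0.0598). Another 11 lymphocyte genes were too low to be tested. Antigen presentation genes rose in 6 of 11, among them the class II genes H2-Aa (45.3 and 26.1 at E12.5 and 271 and 303 at E16.5, change 2.36, x_at), H2-Eb1 (1.79) and H2-Ab1 (1.63), and the class I genes H2-D1 (1.38, x_at) and B2m (1.12). H2-Eb1 was lost without the second E12.5 array (adjusted p = 0.0759), and H2-D1 fell below 2-fold with all probe sets averaged (0.67).

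Fat genes rose in 10 of 12 tested (median 2.87), against 10.1% of all genes. Adipoq, the hormone adiponectin, read 17.1 and 2.69 at E12.5 and 1865 and 2142 at E16.5 (5.85 ± 0.36 SE, adjusted p = 3.5e-10). Car3, a carbonic anhydrase of fat and slow muscle, read 449 and 481 at E12.5 and 18814 and 20985 at E16.5 (5.34 ± 0.15 SE, adjusted p = 7.8e-15), and Fabp4, the adipocyte fatty acid carrier, read 172 and 192 at E12.5 and 7403 and 8973 at E16.5 (5.30 ± 0.31 SE, adjusted p = 2.1e-10). Pparg, the regulator of the lineage, rose from 4.47 and 4.59 to 293 and 259 (3.31, adjusted p = 6.8e-08), and Cidea, a lipid droplet protein of brown fat, from 42.1 and 2.81 to 545 and 573 (3.73, adjusted p = 1.3e-06). Ucp1, the uncoupling protein that makes brown fat produce heat, read 3.88 and 12.48 at E12.5 and 13.6 and 41.8 at E16.5, was not called (adjusted p = 0.36) and read 9667 and 9821 at E18.5. Fatty acid oxidation genes rose in 6 of 13 tested (median 0.90), with Acaa2 (1108 and 1110.1 at E12.5 and 3771 and 3436 at E16.5, change 1.68), Acadm (1.29), Acadl (1.17), Fabp3 (1.34) and the regulator Ppara (1.94). With all probe sets averaged Fabp3 (0.84) and Acadl (0.82) were under 2-fold, and Ppara was lost with a pseudocount 4 times smaller (adjusted p = 0.107). Cpt1a, the entry enzyme of the pathway in liver, changed by 0.05 (adjusted p = 0.859).

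On the lung list 7 of 10 tested genes rose, against 10.1% of all genes, and values of a whole embryo do not place a rise in that organ. Sftpc, surfactant protein C of alveolar type 2 cells, read 26.3 and 93.1 at E12.5 and 5656 and 5708 at E16.5 (6.18 ± 0.42 SE, adjusted p = 1.3e-09). Scgb3a2, a secretoglobin of the airway, read 62.1 and 34 at E12.5 and 1352 and 1331 at E16.5 (4.24 ± 0.33 SE, adjusted p = 6.4e-09). Ager rose by 1.96, Hopx by 1.95 (807 and 1002 at E12.5 and 3457 and 3637 at E16.5) and the type 2 protease Napsa by 1.68. In the lung Ager and Hopx mark alveolar type 1 cells, but Hopx was already above the array medians of 157.7 and 156.2 at E12.5. Scgb1a1, the club cell product, was at 21 and 19.2 at E16.5, was not called (adjusted p = 0.223) and read 2706 and 2098 at E18.5. With a pseudocount 4 times larger, 4 lung genes rose and Ager was just under 2-fold, and Napsa was lost with one 4 times smaller (adjusted p = 0.0531).

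Many digestive genes were dim at E12.5, where 8 of 9 pancreas and 12 of 14 intestine genes tested were below the median on both arrays. Of the 9 pancreas genes 6 rose (median 3.06), and of the 14 intestine genes 11 (median 2.26), against 10.1% of all genes. Ctrb1, chymotrypsinogen, read 12 and 8.09 at E12.5 and 4041 and 3927 at E16.5 (6.81 ± 0.40 SE, adjusted p = 2.1e-10), and Cpa1, carboxypeptidase A, 16.3 and 4.54 at E12.5 and 2296 and 2133 at E16.5 (5.97 ± 0.35 SE, adjusted p = 2.1e-10). Colipase (Clps), the elastase Cela2a and the lipase Cel rose by 4.69, 4.54 and 3.06. The pancreatic factors Ptf1a and Pdx1 changed by 0.47 and 0.44 and were not called. On the intestine list Lgals4, a galectin of the epithelium, read 44.2 and 36.6 at E12.5 and 1902 and 2058 at E16.5 (4.92 ± 0.32 SE, adjusted p = 6.5e-10). Apoa4 (x_at), Fabp1, Fabp2 and the goblet cell peptide Tff3 rose by 4.71, 4.20, 3.93 and 3.91. Whole embryos were measured, so the rises of this list, that of Fabp1 included, cannot be assigned to the gut. The stem cell receptor gene Lgr5 read 359 and 349 at E12.5 and 214 and 270 at E16.5 and was not called (adjusted p = 0.143).

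Hormone and steroid genes gave 7 calls among 18 tested, all upward, against 10.1% rises and 2.57% falls over all genes. At or below the array median on both E12.5 arrays were 6 of 9 islet, 2 of 3 pituitary and 5 of 6 steroid genes. So were 6 of 9 kidney genes and 4 of 9 lens crystallins. Such genes entered the test through later or earlier stages, with more room to rise than to fall. Of 9 tested islet genes 3 rose: Ins2, insulin (11.5 and 35.5 at E12.5 and 384 and 364 at E16.5, x_at, change 3.06, adjusted p = 3.6e-04), Iapp, amylin (2.17, adjusted p = 1.2e-04), and Gcg, glucagon (1.39, adjusted p = 0.0156). Gcg lost its call without the second E12.5 array (adjusted p = 0.0956) and without either E16.5 array (adjusted p = 0.0687 and 0.0668). Sst, somatostatin, read 410.5 and 365 at E12.5 and 332 and 459 at E16.5 (0.01). None of the 3 tested pituitary genes was called, with Gh at 60 and 44.1 at E12.5 and 72.6 and 160.1 at E16.5 and Pomc at 206 and 218 at E12.5 and 236 and 270.3 at E16.5. Steroid synthesis gave 4 calls of 6, Cyp21a1 (34.2 and 38.1 at E12.5 and 139 and 268 at E16.5), Cyp17a1, Cyp11b1 and Hsd3b1, with changes of 1.83, 1.74, 1.32 and 1.22. None of the 4 was called without the second E16.5 array, and 1 to 2 were without any other array of these stages. Kidney genes gave 2 of 9, Cdh16 (84.7 and 55.5 at E12.5 and 225 and 281 at E16.5, change 1.55) and the loop transporter Slc12a1 (1.52), and neither was called without the second E12.5 array or without the second E16.5 array. Lens crystallins rose in 8 of 9, led by Crygb (30.5 and 58.1 at E12.5 and 611 and 603 at E16.5, change 3.20, adjusted p = 9.1e-06), Crygd (2.99), Cryab (2.23), which muscle also makes, Crybb1 (1.85) and Cryaa (1.75).

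The lists with the most falls held patterning and neural genes, and no list was tested against another. Hmga2, a chromatin protein of fetal growth and a known let-7 target, read 7456 and 8342 at E12.5 and 796 and 673 at E16.5 (-3.38 ± 0.22 SE, adjusted p = 8.0e-10). It had already dropped to 2674 and 2138 at E14.5. Igf2bp1 and Igf2bp3, RNA-binding proteins of the same axis, fell from 1784 and 1781 to 572 and 524 (-1.66, adjusted p = 1.5e-09) and from 3302 and 3389 to 1657 and 1537 (-1.06, adjusted p = 1.6e-08). These 3 were the calls among 8 tested genes of the Lin28 axis, against falls in 2.57% of all genes. Igf2bp3 was under 2-fold with all probe sets averaged (-0.83). Lin28a was already dim at 61.2 and 56.4 at E12.5 and was not called (-0.73, adjusted p = 0.0277).

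Hox genes fell in 19 of 29 tested and rose in none, against 2.57% of all genes, with a median of -1.23. The largest falls lay at the 5' end of the Hoxd cluster, whose genes pattern the digits. Hoxd12 read 167 and 182 at E12.5 and 4.03 and 7.71 at E16.5 (-2.66 ± 0.39 SE, adjusted p = 2.3e-05) and Hoxd13 1111 and 1023 at E12.5 and 144 and 203 at E16.5 (-2.47 ± 0.28 SE, adjusted p = 9.7e-07). Hoxd11 fell by 1.88 on the log2 scale, Hoxc5 by 1.87 and Hoxb9 by 1.64. Hoxd8, in the same cluster, was the only tested Hox gene with a higher mean at E16.5 (462 and 534 at E12.5 and 550.4 and 554 at E16.5, change 0.15, adjusted p = 0.633). With a filter at the 75th percentile, which leaves fewer genes to test, 11 Hox genes fell.

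**Figure D4:**
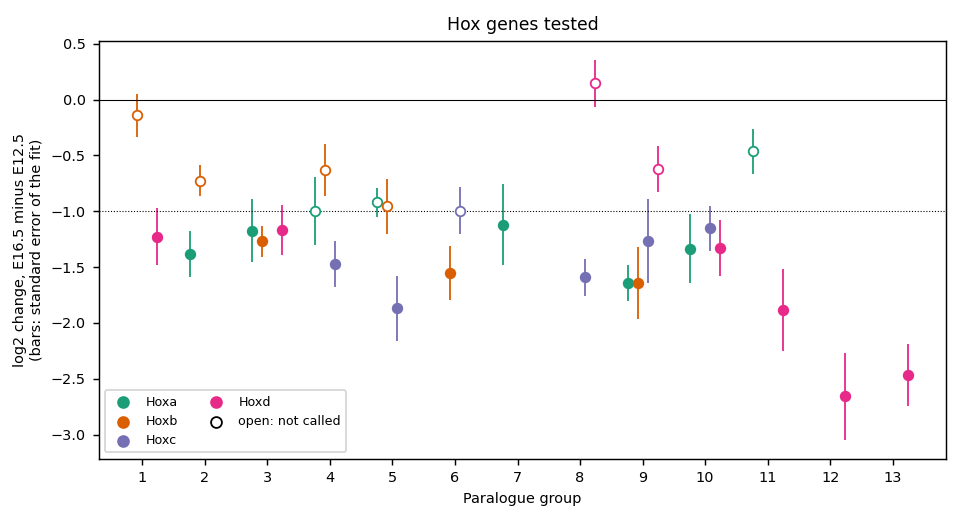
Log2 change, E16.5 minus E12.5 (y axis; bars are standard errors of the fit), of the 29 Hox genes tested by paralogue group (x axis) and cluster (colour), with called genes filled. Hoxd12 and Hoxd13 lie lowest, at -2.66 and -2.47, and Hoxd8 is the only point above 0.

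Limb and face mesenchyme genes fell in 10 of 20 tested (median -1.14), against 2.57% of all genes. Msx2 and Msx1, homeobox genes of the limb tip and skull, read 497 and 568 at E12.5 and 127 and 148 at E16.5 (-1.78, adjusted p = 1.0e-07) and 893 and 774 at E12.5 and 274 and 271 at E16.5 (-1.52, adjusted p = 4.4e-08). Lhx9, Alx1 and Shox2, of limb, face and proximal limb, fell by 1.76, 1.70 and 1.51 on the log2 scale. Twist2, which dermal cells keep, read 1517 and 1621 at E12.5 and 1352 and 1301 at E16.5 and was not called (-0.24, adjusted p = 0.294).

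Neural progenitor genes fell in 8 of 14 tested and young neuron genes in 6 of 13, against 2.57% of all genes. Every tested member of both lists had a lower mean at E16.5, while the median change over all genes was -0.01. Neurog1 and Neurog2, which commit progenitors to neurons, read 265 and 326 at E12.5 and 42.6 and 37.1 at E16.5 (-2.29 ± 0.31 SE, adjusted p = 8.1e-06) and 871 and 776 at E12.5 and 142 and 198 at E16.5 (-2.13 ± 0.24 SE, adjusted p = 9.5e-07). Sox2 and Sox3, which hold the progenitor state, fell by 1.57 (2941 and 2976 at E12.5 and 934 and 1020.2 at E16.5) and 1.54, and the Notch target Hes5 (x_at) by 2.19, on the log2 scale. Nhlh2, a factor of newborn neurons, read 1869 and 1742 at E12.5 and 186 and 204 at E16.5 (-3.05 ± 0.30 SE, adjusted p = 1.4e-07), and Nhlh1, Elavl4, Isl1 and Pou4f1 fell by 1.75, 1.58, 1.41 and 1.37. Hes1, another Notch target, and Gap43, of growing axons, were not called, with changes of -0.05 and -0.16.

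Other neural genes were among the 10 largest falls. Ppp1r17, an inhibitor of a protein phosphatase, read 398 and 418 at E12.5 and 21.1 and 29.9 at E16.5 (-3.08 ± 0.30 SE, adjusted p = 1.5e-07). Robo3, the receptor that lets axons cross the midline, read 283 and 264 at E12.5 and 41 and 28.2 at E16.5 (-2.31 ± 0.37 SE, adjusted p = 5.3e-05). Rfx4, a factor of brain and cilium development, read 513 and 484 at E12.5 and 47 and 57.4 at E16.5 (-2.75, adjusted p = 7.2e-08), although another of its probe sets changed by 0.20, and St18 read 520.5 and 545 at E12.5 and 82.8 and 63.9 at E16.5 (-2.50, adjusted p = 8.0e-05).

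Over all genes tested 10.1% rose and 2.57% fell, and mature neuron genes were split. Of 18 tested 2 rose, Gabra2 (1.06) and Vsnl1 (1.04), and 3 fell, the neurofilaments Nefm (3776 and 4210.3 at E12.5 and 1300.5 and 1325 at E16.5, change -1.58, adjusted p = 2.5e-06) and Nefl (-1.14) and the GABA enzyme Gad2 (-1.16). Without the second E16.5 array neither rise was called, and Gad2 was lost too (adjusted p = 0.0608). Snap25, a synaptic fusion protein, read 871 and 909.6 at E12.5 and 920.2 and 911 at E16.5 (0.04). Glial genes rose in 3 of 10: S100b (81.7 and 58.4 at E12.5 and 346 and 315 at E16.5, change 1.90), Olig1 (1.52) and Aldoc (1.30), with adjusted p-values of 4.7e-04, 7.9e-04 and 2.7e-04. Aldoc was not called with all probe sets averaged (0.64, adjusted p = 0.061). S100b is also made by cartilage and fat.

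**Figure D5:**
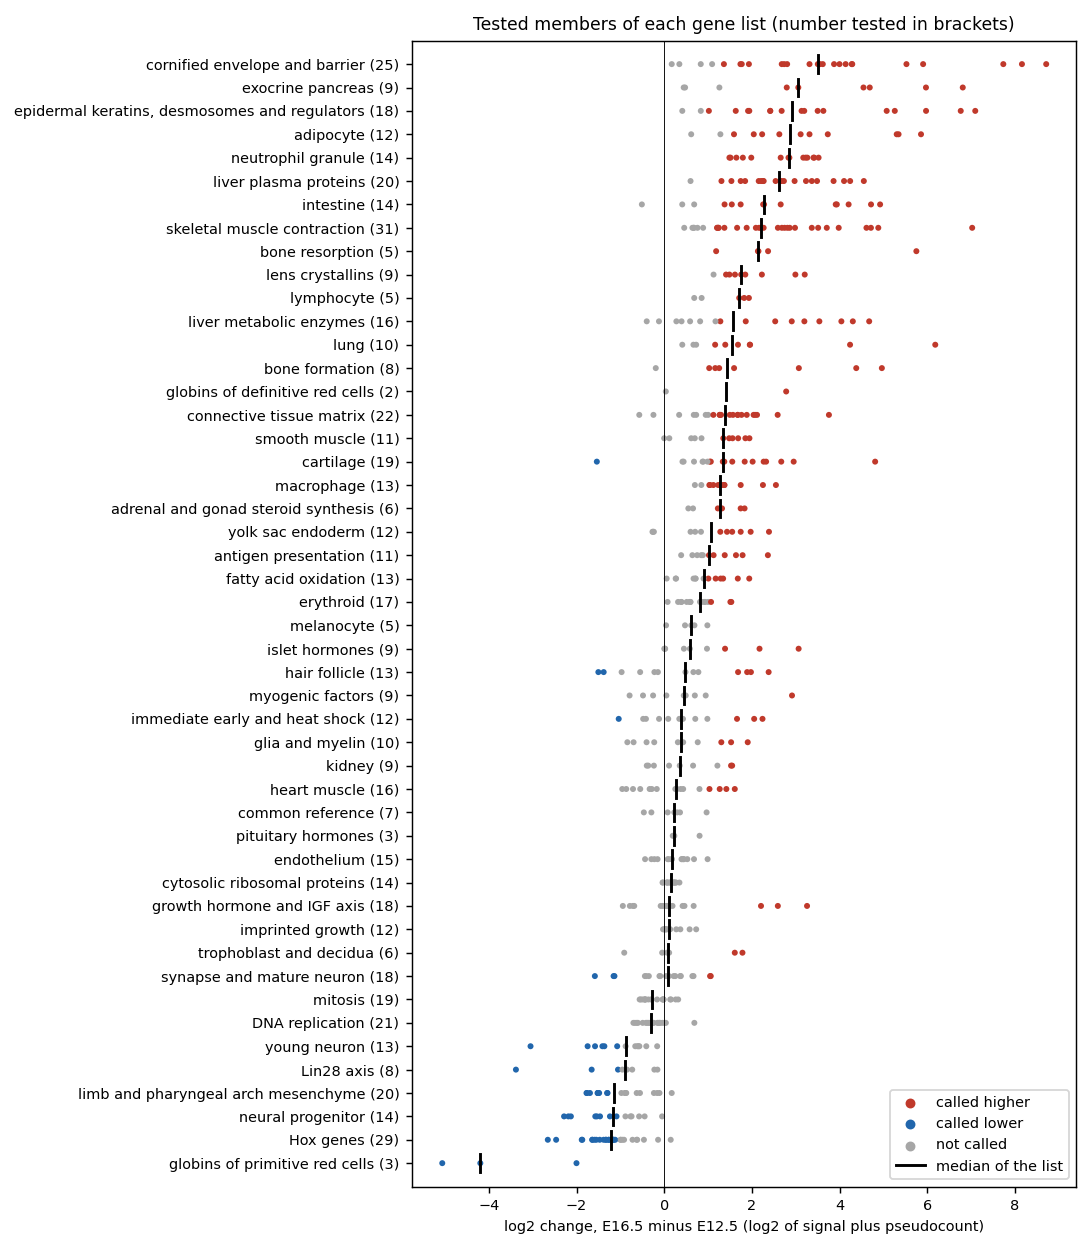
Log2 change, E16.5 minus E12.5 (x axis), of every tested member of the 48 gene lists (rows, ordered by median), with called genes in red or blue. The cornified envelope list lies at the top with a median of 3.50 and the primitive globins at the bottom with -4.20.

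None of 21 tested DNA replication genes and none of 19 mitosis genes was called, with medians of -0.30 and -0.29. Without the 2-fold minimum, 10 replication genes and 9 mitosis genes passed downward and 1 and 2 upward. Without the first E16.5 array 1 replication gene was called upward. Mcm2, of the replication helicase, read 2691 and 2792 at E12.5 and 1696 and 1648 at E16.5 (-0.71, adjusted p = 7.1e-07), whereas Pcna, the polymerase clamp, read 12598 and 14016 at E12.5 and 12616 and 14682 at E16.5 (0.04) and Mki67 5182 and 5767 at E12.5 and 6859 and 6256 at E16.5 (0.26). The letters TTTGAA and CCAAT, elements known from mitotic gene promoters, were found in 12 and 14 of 17 mitosis genes with a promoter in the RefSeq table (70.6% and 82.4%), against 20.2% and 41.1% of all its genes. At E18.5 Mcm2 and Mki67 stood at 1165 and 1051 and 3501 and 3386. None of 12 tested imprinted growth genes was called: Igf2, the fetal growth factor, read 15200.0 and 15579 at E12.5 and 15281 and 18514 at E16.5 (0.13, adjusted p = 0.525) and Igf2r, the receptor that clears it, 2652 and 2741 at E12.5 and 2874 and 2582 at E16.5 (0.02).

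Of 18 tested genes of the growth hormone and IGF axis 3 rose and none fell, against 10.1% and 2.57% of all genes. The 3 encode binding proteins. Igfbp1, made by liver, read 242 and 221 at E12.5 and 2522 and 2343 at E16.5 (3.26 ± 0.38 SE, adjusted p = 1.5e-06), Igfbp6 74.2 and 68.2 at E12.5 and 578 and 539 at E16.5 (2.59, adjusted p = 1.5e-06) and Igfbp7 352 and 334 at E12.5 and 1748 and 1607 at E16.5 (2.21, adjusted p = 5.3e-06). The receptor gene Igf1r (-0.79) and Igfbp5 (-0.95) had lower signals but stayed under 2-fold, though 1 gene of the list fell under quantile normalization, with all probe sets averaged and without the first E16.5 array. Igf1 read 2812 and 3364 at E12.5 and 4729 and 5089 at E16.5 (0.67, adjusted p = 0.0315). None of 14 tested ribosomal protein genes was called, with changes from -0.04 to 0.35. Of the 7 common reference genes tested none was called, though Hprt changed by 0.96 (adjusted p = 8.5e-08) and 1 was called under quantile normalization and without the second E16.5 array.

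Markers of tissues outside the embryo proper and of handling were read beside these groups, and beside the 10.1% rises and 2.57% falls over all genes. Of 12 tested yolk sac endoderm genes 6 rose, namely Apoc2, Amn, Ttr (x_at), Slc39a5, Pla2g12b and Rbp4, which fetal liver, kidney or gut are also known to express, and the list's summed signal was 32766 and 34104 at E12.5 and 58663 and 86976 at E16.5. Of 6 tested trophoblast and decidua genes 2 rose, Elf5 (97.5 and 85.4 at E12.5 and 396 and 359.5 at E16.5, change 1.78) and Ascl2 (1.61), both also known from epithelia of the fetus, and 3 further genes were too low to be tested. The call of Ascl2 was lost with all probe sets averaged (0.61, adjusted p = 0.102) and with a pseudocount 4 times larger (0.78). The 9 measured genes of that list summed to 546 and 599 at E12.5 and 877 and 944 at E16.5, and the placental lactogen relative Prl8a2 read 103 and 114 at E12.5 and 27.7 and 68.5 at E16.5. Among 12 tested immediate early and heat shock genes, Hspa1b (704 and 638 at E12.5 and 3331 and 3192 at E16.5, change 2.24), Fos (2.05) and Hspa1a (1.66) rose and Hsph1 fell (-1.04). Hsph1 was just under 2-fold without the second E16.5 array (-0.97) and with a pseudocount 4 times larger (-0.999). No measured gene of these 3 lists was at 0 on all arrays, and their part in the other results was not tested.

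The E14.5 arrays allow the interval to be split. For each gene the change from E14.5 to E16.5 was compared with that from E12.5 to E14.5 in the same limma fit, and 63 genes (0.449%) had a higher and 22 (0.157%) a lower second change. Of these 85 genes 66 were also called between E12.5 and E16.5. On the barrier list 10 genes had a higher change in the second 2 days, and on the intestine list 3. On the cartilage list 3 had a lower one. The counts depended strongly on the fit. With the E12.5 to E18.5 arrays alone they were 201 and 194, and without either E14.5 array 24 and 5 or 23 and 3. Under quantile normalization 62.6% of the calls were higher, against 74.1% here.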

How the data were processed

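Whole-embryo RNA of 8 stages was read on 20 arrays. As deposited, each value is an intensity on a linear scale, made with MAS5 per the submitters' processing notes, whose version is not given in the sources used here. Their mean, leaving out 2% at each end, was 500 on every array. Detection calls were not used.

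Of 45101 probe sets, 34945 carried 1 gene symbol in the platform annotation, 932 several and 9211 none, and 13 were control probe sets with a symbol. Only the first kind was used. The probe set with the highest mean log2 signal stood for each of 18193 genes. Values were tested as log2(signal + 25.86), the pseudocount being the median over arrays of each array's 25th percentile. R 4.3.3 with limma 3.58.1 (lmFit, eBayes with trend) gave each stage 1 mean over all 20 arrays. The tests are two-sided, with Benjamini-Hochberg adjustment over all 14044 genes tested, and were checked on simulated data. Python 3.11.15 with pandas 2.3.3 made the summaries. With 2 arrays at each stage compared, each of pooled embryos, the number of arrays limits the precision. The p-values measure the spread between pools over all 8 stages, E7.5 to E10.5 included. Array medians were 67.25 to 91.09 at those early stages and 156.2 to 177.6 from E12.5 on. With the E12.5 to E18.5 arrays alone 1491 genes rose and 370 fell.

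Named genes were the 10 largest rises and falls, the 5 most changed calls of each list, or fewer where fewer were called, and the 3 largest each way of the second difference. Uncharacterised loci and x_at probe sets were left out among the largest. Other genes named, such as members that were not called, were chosen by role after their values were seen. The members and lists were chosen with earlier results of these data known. Alternatives covered the normalization, pseudocount, filter, probe set, arrays in the fit, minimum fold, replicate number and each array left out in turn.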

Additional observations from a re-analysis of the deposited data

Results flagged for a closer look

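In 6 genes, the largest each way, the change of the second 2 days differed from that of the first by limma's test of the difference, adjusted over all genes. Hrnr read 1.34 and 0.476 at E12.5, 16.9 and 19.2 at E14.5 and 11003 and 11343 at E16.5, a second change higher by 7.28 (log2, adjusted p = 2.9e-08). Krtap13, described above, had a second change higher by 6.24 (adjusted p = 1.1e-04). Cela2a, a pancreatic elastase gene, read 28.4 and 32, 2.79 and 17 and 1306 and 1253 at the 3 stages, with a difference of 5.90 (adjusted p = 3.1e-05).

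In the other 3 genes the change before E14.5 was the larger one on the log2 scale. Col10a1 read 4.5 and 12.3, 661 and 538 and 1104 and 779 at the 3 stages, a difference of -3.58 (adjusted p = 0.00748). Ibsp read 1309 and 1278 at E14.5, with a difference of -3.06 (adjusted p = 0.0126). Agt, which encodes angiotensinogen, read 18.49 and 17.9, 427 and 393 and 957 and 754, with a difference of -2.30 (adjusted p = 0.0126). Without the first E14.5 array none of these 3 was called, with adjusted p-values of 0.233, 0.216 and 0.286. They were also lost without the second E14.5 array (0.0971, 0.203 and 0.197), without the second E16.5 array (0.0525, 0.0616 and 0.0823) and with a pseudocount 4 times smaller (0.139, 0.193 and 0.0919). Ibsp was lost without the first E12.5 array as well (0.0601).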

How the results depend on the processing

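With 2 arrays a stage and signals below the array median for many genes, small changes of dim genes are beyond these data. The 1417 rises and 361 falls became 912 and 264 with a filter at the 75th percentile, which tests fewer genes. They became 1010 and 216 with a pseudocount 4 times larger, 1443 and 540 under quantile normalization, and 2532 and 2444 with no minimum fold. Leaving out 1 array gave 1205 to 1299 rises and 331 to 406 falls. For the second 2 days against the first, the 63 higher and 22 lower genes became 117 and 70 under quantile normalization, 28 and 12 with a pseudocount 4 times smaller, 166 and 91 with one 4 times larger, 201 and 194 with the E12.5 to E18.5 arrays alone, and 164 and 179 with the 3 stages alone. The share of higher calls was 50.9% and 47.8% in the last 2 of these, against 74.1%. Leaving out 1 array gave 23 to 50 higher and 3 to 19 lower genes, and the cause was not tested. Replicate numbers did not pair the arrays (correlations of deviations 0.001, 0.025 and 0.135), and a replicate block gave 1436 rises, 365 falls, 71 higher and 23 lower. Of 177 named genes none changed direction under any alternative that tested them. With all arrays kept, at most 14 of the calls between E12.5 and E16.5 were lost, with a pseudocount 4 times larger. Genes that an alternative left untested were not counted as lost, such as all lymphocyte genes with the filter at the 75th percentile.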
